A study of Mus musculus with 1504 samples.

Results

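Endothelial cells with transcripts of arterial marker genes were sought among single cells of the adult mouse lung. The cells were selected on 5 genes that mark arterial endothelium: Gja5 and Gja4, which encode the gap junction proteins connexin 40 and connexin 37, Bmx, a kinase of arterial endothelium, Dkk2, a secreted regulator of WNT signalling, and Sema3g, a secreted semaphorin. A cell entered when at least 2 of the 5 reached 20 CPM, where CPM is counts per 1e6 reads of that cell. It also had to hold less than 50 CPM of the lymphatic regulator Prox1, less than 100 CPM of the endothelin receptor gene Ednrb, and less than 10000 CPM of the epithelial transcripts Sftpc and Scgb1a1 together. By this rule 107 of the 769 endothelial cells were chosen, out of 1504 cells in the series, which is 13.9% with an exact 95% Clopper-Pearson interval of 11.5% to 16.6%. The 5 gate genes and the 4 exclusion genes are therefore described here and support nothing.

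The series profiled vascular cells from lungs of C57BL/6 mice with SMART-seq2, a plate method that reads whole polyadenylated transcripts of single sorted cells. Of its 3 reporter groups, only the 769 cells of Cldn5(BAC)eGFP mice are used here, taken from animals aged 12 to 15 weeks, in which a bacterial artificial chromosome carries eGFP under the control of the tight junction gene Cldn5. Their columns fall into 3 sets, EC1, EC2 and EC3, which are named in the table and not explained. The sort on a Cldn5 reporter limits the cells to those that switch on that transgene, and all cells compared below carry it.

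Arteries and arterioles are lined by endothelium that receives Notch signals, expresses ephrin B2 and connexins, and sits on an elastic wall, whereas lung capillaries hold general capillary cells, which serve as the renewing pool, and aerocytes, large thin cells specialised for gas exchange. Connexin 40 is held to be the more restricted arterial connexin, and connexin 37 is also found in smaller vessels. Notch signalling acts through the DNA-binding protein RBPJ and raises targets such as Hey1, and Sox17 and the chemokine Cxcl12 are widely used as further marks of arterial endothelium.

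The labels name no animal, plate or date, so the endothelial cells count as 1 sample, no comparison has a replicate check, and no p-value was computed. The values of EC1, EC2 and EC3 are given side by side as the spread that the table allows. Reads in genes ran from 100725 to 382051 per gated cell, with a median of 199420 reads and 1869 genes, and the 266 endothelial cells with none of the 5 genes at 20 CPM, called the reference, had medians of 220736 reads and 2046 genes. SMART-seq2 reads carry no molecular identifiers, so each interval below is at 95% and covers counting error only.

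Connexin 37 was common to all the selected cells, and the other gate genes were not. All 107 gated cells held Gja4 at 20 CPM or more. Sema3g joined it in 87 of them, Bmx in 17 and Gja5 in 10, and Dkk2 reached 20 CPM in 0 of 107, which allows a share of up to 2.8% of cells. By combination, 82 cells held Gja4 with Sema3g and nothing else, 14 held Gja4 with Bmx, and 4 held Gja4 with Gja5. A further 4 had Gja5, Gja4 and Sema3g, 2 had Gja5, Gja4 and Bmx, and 1 had Gja4, Bmx and Sema3g. Thus 100 cells entered with 2 gate genes and 7 with 3.

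**Figure D1:**
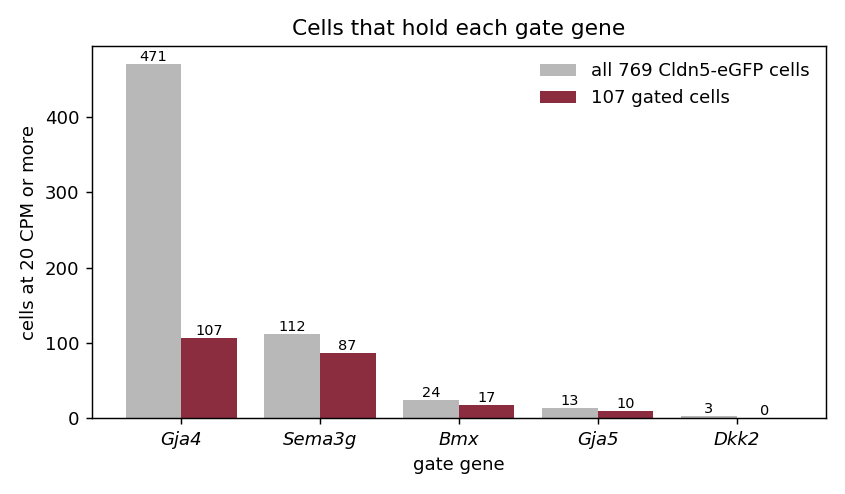
Number of endothelial cells with each gate gene at 20 CPM or more (vertical axis), among all 769 cells (grey) and among the 107 gated cells (red). Gja4 was held by 471 of all cells, far more than Sema3g with 112, Bmx with 24, Gja5 with 13 or Dkk2 with 3.

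Gja4 was not restricted to the gated cells, since 471 of the 769 endothelial cells held it. Its level over the reads of all gated cells was 1553 CPM, with 1943 in EC1, 1223 in EC2 and 1472 in EC3. It was 1637 CPM in 375 cells that held 1 gate gene and met the same exclusions, 347 of them through Gja4. Gated cells thus did not hold more Gja4 than the cells just short of the gate. In the 3 mural sets, sorted for reporters of the cells that wrap vessels, Gja4 was at 95.7, 80.7 and 2.95 CPM.

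The other gate genes were held by fewer cells, and Gja5 and Bmx were uneven over the sets. Sema3g was at 289, 205 and 312 CPM in the gated cells of EC1, EC2 and EC3, similar in all sets. It was held by 88 of the 471 cells with Gja4, or 18.7% (15.3% to 22.5%), and by 24 of the 298 without it, or 8.05% (5.23% to 11.7%). Gja5 was at 66.0, 11.7 and 250 CPM and was carried by 3, 2 and 5 cells of the sets. Bmx was at 14.1, 147 and 17.1 CPM. The gate at 20 CPM cut through low values: the weaker of the gate genes that admitted a cell stood at 20.3, 20.6 and 25.0 CPM in the cells just inside, and at 19.9, 17.4 and 16.1 CPM in those just outside. The 38, 34 and 35 gated cells of EC1, EC2 and EC3 were 15.6%, 12.4% and 13.9% of their sets, with overlapping intervals.

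The label of arterial endothelium was then set against the list of 49 other arterial genes that the table measures. Of these, 22 were under 20 CPM in the gated cells, 9 were under 1 CPM, and 2 had no read. Some genes linked to large arteries were at low or modest levels. Gkn3, a marker of arterial endothelium, was at 0.274 CPM, Fbln5, which helps to assemble elastic fibres, at 5.67, and Mgp, which keeps matrix from calcifying, at 31.0. Eln, the elastin gene, was at 44.5 CPM. These levels are given without those of other endothelial cells. Other list genes, among them Cxcl12, Efnb2, Edn1 and Sox17, were far above 20 CPM and are described below.

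Capillary genes, in contrast, were abundant in nearly every gated cell. Gpihbp1, which anchors lipoprotein lipase on capillary endothelium, was at 1474, 1466 and 1331 CPM in EC1, EC2 and EC3, and 91.6% of gated cells held a read after each cell was thinned to 50000 reads. Cd36, a fatty acid receptor of capillaries, was at 6970 CPM and found in 99.1% of them. Kit, the stem cell factor receptor of general capillary cells, was at 1210 CPM and found in 85.0%. The 49 arterial genes summed to 13024.5 CPM in gated cells, 11895 in the cells with 1 gate gene and 9947 in the reference. The arterial list was thus somewhat higher in gated cells. Given the capillary transcripts, the name arterial was not kept for the group as a whole, and the cells are called gated cells below.

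A gene was tested when one side reached 20 CPM in its summed reads and, after thinning, at least 25% of the cells there had a read. It passed the size rule when the summed levels differed at least 2-fold and EC1, EC2 and EC3 shared the direction. Against the reference, 75 genes passed as higher in gated cells, or 3.42% of the 2194 tested, and 120 as lower, or 5.47%. The reference is a mixture, because 83 of its 266 cells break an exclusion that the gate imposed, 69 of them by Ednrb, which marks aerocytes. With the same exclusions on both sides, 183 matched reference cells remained, with medians of 197174 reads and 1895 genes. Against them 38 genes passed as higher, or 1.95% of 1949 tested, and 54 as lower, or 2.77%.

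A small group of arterial genes was higher in gated cells. Efnb2, Hey1, Sox17, Cxcl12 and Edn1 passed against the reference, 5 of the 17 arterial list genes tested, beside 3.42% of all genes tested. The median log2 difference of those 17 was 0.39, against 0.02 over all genes tested. Clu and Hspb1, a chaperone gene each, passed as lower. Against the matched reference only Efnb2 passed, 1 of 15 tested, beside 1.95% of all genes tested, with a list median of 0.38. The list was compiled with earlier results of these data known.

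Efnb2 encodes ephrin B2, the membrane ligand that marks the arterial side of the vascular tree, and lies at chr8:8617434-8661242 of GRCm38. In gated cells it was at 689 CPM in EC1, 648 in EC2 and 1147 in EC3, and in matched reference cells at 330, 396 and 500. The sets did not overlap. The fold was 2.35 (2.3 to 2.4) against the reference and 2.05 (2.00 to 2.09) against the matched reference. A read was found in 70.1% of gated cells and 46.4% of matched reference cells after thinning. Of the 5 genes, Efnb2 moved least between the references.

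Cxcl12, the chemokine read by Cxcr4, lies at chr6:117168535-117181367. Its level was 1137, 1385 and 1035 CPM in the gated cells of the sets, 536, 367 and 287 in the reference and 684, 536 and 602 in the matched reference. Gated cells were higher in each set. The fold was 3.10 (3.05 to 3.15) against the reference, and 1.98 (1.94 to 2.01) against the matched reference, just under the rule. Sox17, a transcription factor needed for arterial fate, gave 510, 405 and 403 CPM in gated cells and 219, 204 and 262 in matched reference cells. Its fold fell short of the rule by as little, at 1.96 (1.90 to 2.01), after 3.11 (3.03 to 3.21) against the whole reference.

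Hey1, a transcriptional repressor and direct Notch target, was at 299, 361 and 341 CPM in gated cells and at 239, 188 and 236 in matched reference cells. The fold of 2.54 (2.46 to 2.62) against the reference came down to 1.54 (1.49 to 1.59). Edn1, the precursor of the vasoconstrictor endothelin 1, was at 638, 423 and 677 CPM in gated cells and at 344, 370 and 246 in matched reference cells. Here the fold went from 2.89 (2.82 to 2.96) to 1.78 (1.74 to 1.83). The log2 differences of these 5 genes from the reference stayed above 1 without any one of EC1, EC2 and EC3, with the lowest at 1.06 for Efnb2 without EC3.

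**Figure D2:**
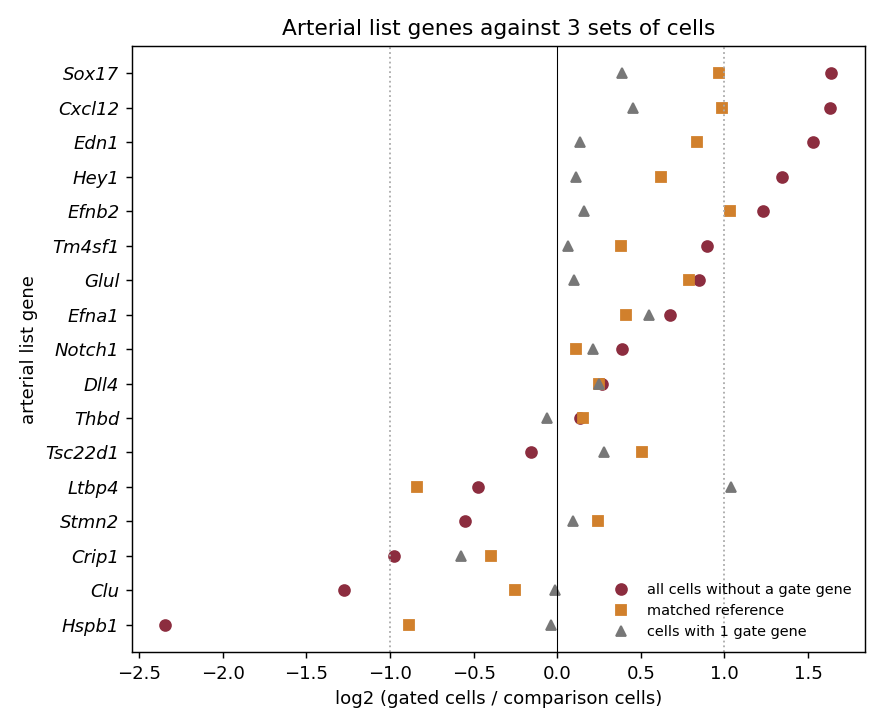
Log2 ratio of the summed level in gated cells to that in 3 sets of comparison cells (horizontal axis) for the 17 arterial list genes tested against the reference. Dotted lines mark a 2-fold difference. Most points draw toward 0 from the whole reference (circles) to the matched reference (squares) and to cells with 1 gate gene (triangles).

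Sequence before the start was at hand for Efnb2, Cxcl12 and Edn1, and Hey1 and Sox17 were not searched. It is shown for Efnb2, the only list member past the rule under both references. It is also shown for Cxcl12, the member of this group with the highest level. The windows are the 250 bases before the annotated start in GRCm38.p6, at chr8:8661243-8661492 on the minus strand for Efnb2 and chr6:117168285-117168534 on the plus strand for Cxcl12, printed in the direction of the gene. Capitals mark the core of the RBPJ motif, TGGGAA, sought on both strands.
Efnb2: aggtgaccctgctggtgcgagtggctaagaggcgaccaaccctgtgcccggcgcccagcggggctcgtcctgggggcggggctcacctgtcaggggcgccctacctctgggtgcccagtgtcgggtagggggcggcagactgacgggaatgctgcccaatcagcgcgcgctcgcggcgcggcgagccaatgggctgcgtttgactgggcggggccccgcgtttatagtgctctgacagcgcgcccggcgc
Cxcl12: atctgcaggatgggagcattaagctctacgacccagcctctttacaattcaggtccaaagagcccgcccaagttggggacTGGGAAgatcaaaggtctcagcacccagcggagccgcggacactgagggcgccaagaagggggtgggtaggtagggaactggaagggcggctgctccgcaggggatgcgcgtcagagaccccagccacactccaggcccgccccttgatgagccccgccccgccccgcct
Cxcl12 has 1 match, which begins at position -170 from the start, and Efnb2 has 0 in this window. The window of Edn1, the other of the 5 genes with an entry in the table, also has 0 and is not printed. The same core is present in 7094 of 32851 windows of that length, or 21.6%, and a match is not a bound site.

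Levels of these genes climbed with the number of gate genes a cell held. Cxcl12 was at 597 CPM in matched cells with no gate gene, 861 in the 375 cells with 1 gate gene and 1181 in gated cells. Sox17 ran 225, 336 and 440 CPM in the same order. Vegfa, the main endothelial growth factor gene, ran 190, 266 and 335 CPM. For Efnb2, Hey1 and Edn1 the step lay mostly between no gate gene and 1. Efnb2 ran 407, 744 and 833 CPM, Hey1 216, 308 and 333, and Edn1 327, 531 and 583.

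**Figure D3:**
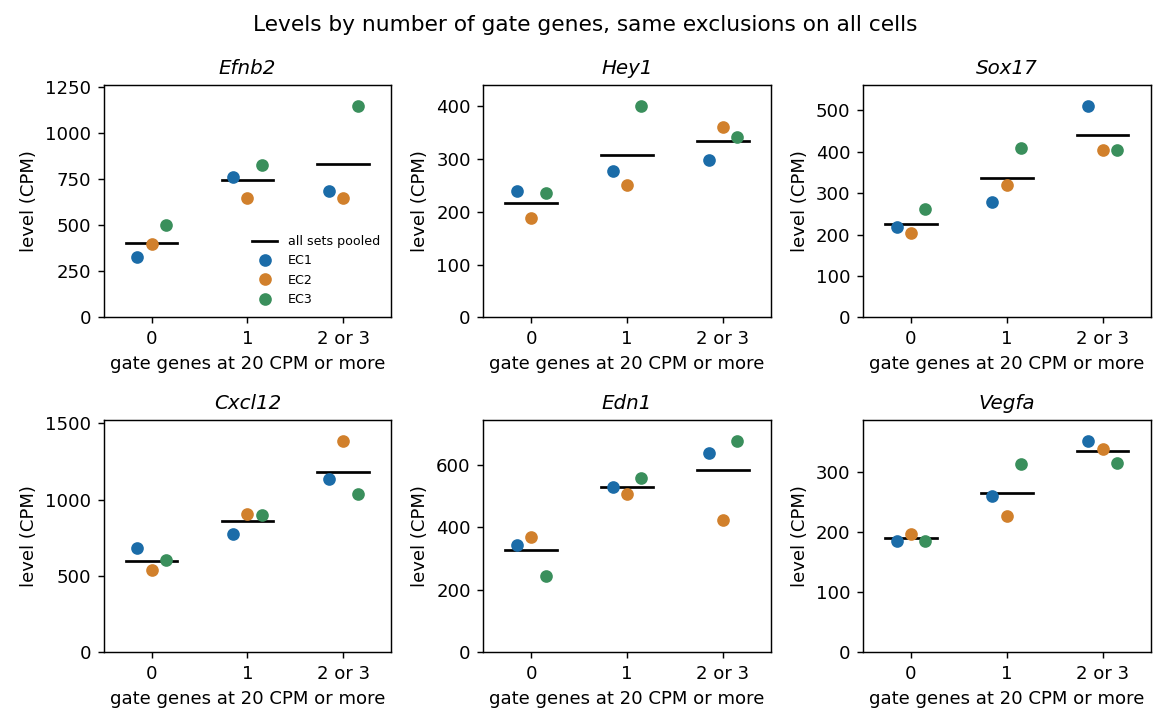
Level in CPM (vertical axis, from 0) of 6 genes that did not define the gate, in cells with 0, 1 and 2 or 3 gate genes at 20 CPM or more, all with the same exclusions. Points are EC1, EC2 and EC3 and black bars the pooled level. Pooled Cxcl12 runs from 597 to 861 to 1181 CPM, and the sets of Hey1 overlap between 1 gate gene and more.

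Set against cells with 1 gate gene, the gated cells had little of their own. Of 1878 genes tested 13 passed as higher, or 0.692%, and 12 as lower, or 0.639%, and 0 of the 15 arterial list genes tested passed in either direction. Those cells held Gja4 in 347 of 375 cases, so the contrast is in the main that of Sema3g or Bmx beside Gja4 against Gja4 alone. The median log2 difference of the arterial list was 0.14, against 0.03 over all genes tested. Efnb2 differed 1.12-fold, Hey1 1.08-fold and Sox17 1.31-fold. Ltbp4, a binding protein of latent TGF-beta, differed 2.06-fold but did not pass. The single genes that passed were of mixed function: Mapk9, a stress kinase gene, was 2.19-fold higher and Snrpe, a splicing factor gene, 2.04-fold higher, and Ptprg and Tgfbr3 were lower, at 0.439 and 0.487 of the level.

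Among the 25 Notch pathway genes measured, 9 were tested. Hey1 was the only one to pass against the reference, where 3.42% of all genes tested were higher. Against the matched reference 0 of 9 passed, where 1.95% of all genes tested were higher and 2.77% lower. The receptor Notch1 was at 344, 294 and 376 CPM in gated cells and 309, 329 and 294 in matched reference cells, so the sets overlapped. The ligand Dll4 was at 329, 110 and 460 CPM against 266, 282 and 207, with gated cells of EC2 below all matched sets. Notch4, the endothelial receptor, was at 311 CPM in gated cells and 404 in matched reference cells.

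Of 59 endothelial transcription factor genes measured, 28 were tested against the reference. Sox7, Sox17 and Hey1 passed as higher, and Tbx2 as lower, where 3.42% of all genes tested were higher and 5.47% lower. Sox7, a relative of Sox17 that acts in vessel formation, was at 624, 961 and 784 CPM in gated cells and 509, 488 and 363 in matched reference cells, a fold of 1.71 (1.68 to 1.75). Its log2 difference from the reference, 1.14, was 0.90 without EC3. Against the matched reference 0 of 24 passed, where 1.95% of all genes tested were higher and 2.77% lower.

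Secreted and vasoactive genes followed the same course. Of 40 measured and 15 tested, Edn1, Npr3 and Vwf passed against the reference and 0 against the matched reference. Of all genes tested, 3.42% were higher than in the reference and 1.95% higher than in the matched reference. Vwf, the platelet adhesion factor that is usually low in capillaries, was at 587, 643 and 673 CPM in gated cells and at 267, 387 and 221 in the reference, where the sets did not overlap. In cells with 1 gate gene it was at 821 CPM, above the gated level. Npr3, the clearance receptor of natriuretic peptides, was at 244 CPM in gated cells, 110 in the reference and 183 in the matched reference. Without EC3 the log2 difference from the reference was 0.86 for Vwf and 0.85 for Npr3.

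Vegfa, at chr17:46016993-46032369, was at 352, 339 and 315 CPM in gated cells, 133, 136 and 89.2 in the reference and 186, 197 and 185 in the matched reference. The sets were tight and did not overlap. Its fold was 2.84 (2.75 to 2.93) against the reference and 1.76 (1.71 to 1.82) against the matched reference. Of the 12 genes of the VEGF, PDGF and angiopoietin list tested, Vegfa and Cxcl12 passed as higher and Kdr, Flt4 and Fgf1 as lower. The shares over all genes tested were 3.42% higher and 5.47% lower. Only Flt4 passed against the matched reference, as lower, 1 of 11 tested, where 2.77% of all genes tested were lower.

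Among genes past the rule, the highest fold against the reference belonged to Slc6a6, the taurine transporter, with 458, 1121 and 354 CPM in gated cells and 169, 266 and 89.7 in the reference. It also passed against the matched reference, at 2.56-fold (2.5 to 2.63), but stood at 748 CPM in cells with 1 gate gene, above the 633 of gated cells. Rgs3, which shortens G protein signals, had 214, 307 and 281 CPM in gated cells and 112, 96.2 and 128 in matched reference cells. It passed under both references, at 2.88 and 2.43-fold. Adamts1, a matrix protease gene, was 3.18-fold higher than the reference and uneven, at 225, 690 and 653 CPM. It did not pass against the matched reference, which held 251, 193 and 327 CPM, since EC1 went the other way. Gata3, a transcription factor, was at 64.5, 135 and 252 CPM, and its log2 difference of 1.70 was 0.90 without EC3 and 2.59 without EC2. The difference was 0.96 against the matched reference, short of the rule. Among guidance genes, Efnb2, Ephb4 and Ntn1 passed against the reference, 3 of 13 tested, where 3.42% of all genes tested were higher. Ephb4, the receptor of ephrin B2 and a venous mark, was at 463 CPM in gated cells and 220 in the reference, and its log2 difference of 1.07 was 0.81 without EC2. Ntn1, the gene of the guidance protein netrin 1, was at 381 and 187 CPM, and its log2 difference of 1.02 was 0.86 without EC3. Against the matched reference only Efnb2 passed, 1 of 13 tested, where 1.95% of all genes tested were higher. Ephb4 was at a log2 difference of 0.57 there and Ntn1 at 0.44.

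Aerocyte genes were lower in gated cells than in the whole reference and much less so once the exclusions were matched. Of 12 aerocyte list genes tested, 8 were lower than in the reference, where 5.47% of all genes tested were lower. Against the matched reference 0 of 10 passed, where 2.77% of all genes tested were lower. Tbx2 and Prx, also of the list, did not pass there, yet their log2 differences were -1.8 and -1.3, beyond 2-fold. The 18 measured genes of the list summed to 7376 CPM in gated cells, 22294 in the reference and 8420 in the matched reference. Car4, the membrane carbonic anhydrase that names these cells, was at 852, 732 and 334 CPM in gated cells, 2590, 2700 and 4671 in the reference and 944, 598 and 805 in the matched reference. It was thus 5.34-fold lower (5.25 to 5.44) and then 1.19-fold lower (1.17 to 1.21). Kdr, the main VEGF receptor, was 3.16-fold lower (3.10 to 3.22) and then 1.37-fold lower (1.34 to 1.40). Tbx2, a transcription factor of aerocytes, was at 14.8 CPM in gated cells, 227 in the reference and 51.5 in the matched reference. EC3 held the highest aerocyte levels in the reference, and without it the log2 difference of Car4 was -1.74 in place of -2.42, that of Tbx2 -3.24 in place of -3.94 and that of Cyp4b1, a cytochrome gene, -0.83 in place of -1.23. Ednrb itself was at 967 CPM in the reference and 1.6 in gated cells, as the gate required.

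**Figure D4:**
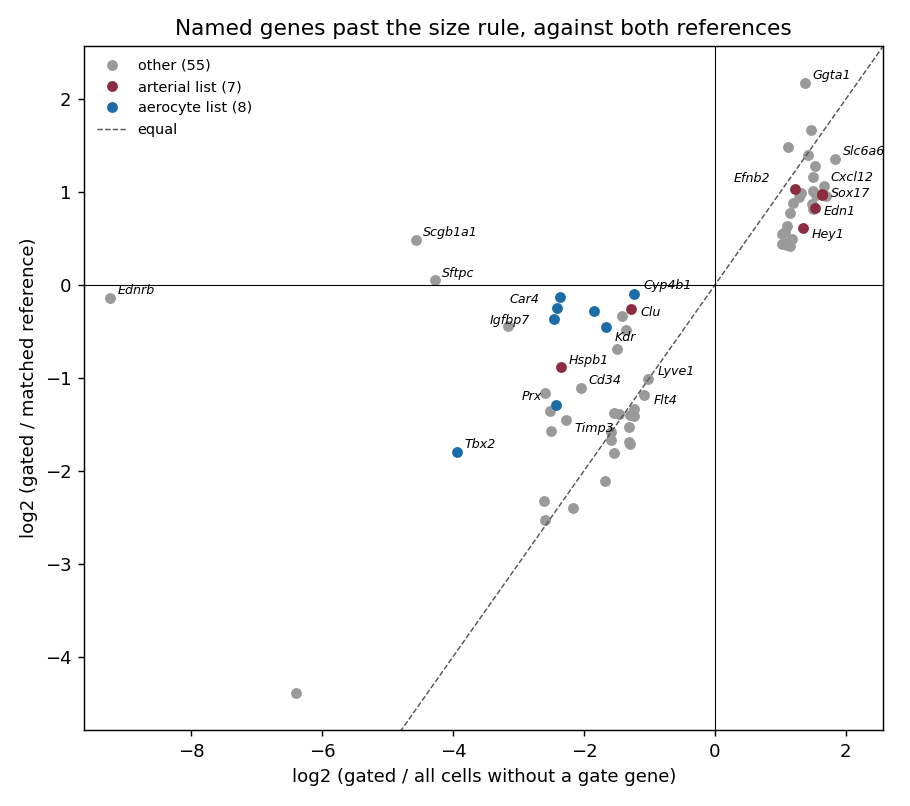
Log2 ratio of gated cells to the whole reference (horizontal axis) and to the matched reference (vertical axis) for the named genes that passed the size rule against the whole reference. Aerocyte genes (blue) lie left of 0 on the horizontal axis, and near 0 or moderately below it on the vertical axis. Arterial genes that are higher (red, upper right) lie below the dashed line of equality, and Efnb2 lies close to it.

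Another group was lower under both references. Tgfbr2 and Tgfbr3, receptor genes of the TGF-beta pathway, were at 113 and 85.7 CPM in gated cells and at 337 and 222 in matched reference cells. Per set Tgfbr3 was at 67.0, 71.5 and 117 CPM against 329, 189 and 164, with no overlap, and a read was found in 19.6% of gated and 41.5% of matched reference cells. Timp3, a matrix-bound protease inhibitor, was at 74.7, 246 and 164 CPM against 292, 393 and 646, and was 2.73-fold lower (2.63 to 2.83). Its log2 difference from the reference, -2.28, was -2.91 without EC2. Cd34, a sialomucin of endothelium, was at 297, 208 and 361 CPM against 483, 495 and 960. Lyve1, a hyaluronan receptor of lymphatic and some capillary cells, was 2.01-fold lower (1.96 to 2.07), and its log2 difference of -1.02 was -0.83 without EC1 and -0.95 without EC2. Flt4, the VEGF receptor of lymphatics, was 2.26-fold lower (2.19 to 2.34), with -0.95 in place of -1.08 without EC3.

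Markers of other cell types differed beside these results. The lymphatic list, 12 genes measured, summed to 248, 193 and 177 CPM in the gated cells of the sets and to 1654, 1264 and 2072 in matched reference cells. In gated cells 3 of its genes, Cldn11, Fgl2 and Foxc2, had no read, and Reln, a secreted protein of lymphatic endothelium, was at 1.65 CPM against 386 in matched reference cells, although both sides met the limit on Prox1. The list of 16 leukocyte, platelet and red cell genes summed to 74.5, 116 and 29.7 CPM in gated cells and 3186, 540 and 29.0 in matched reference cells, and 4 of its genes, S100a8, Cd68, Hbb-bs and Nkg7, had no read in gated cells. Hbb-bs had none in the matched reference either. Some of the list was higher in gated cells: Itga2b, an integrin gene of platelets, was at 27.4 CPM, with 80.9 in EC2 and 0 in EC3, and had no read in matched reference cells. Csf1r, a receptor of macrophages, was at 8.73 CPM against 4.13, and the platelet gene Pf4 at 2.93 against 1.01. The fibroblast list summed to 69.3, 59.6 and 194 CPM in the gated cells of the sets and to 44.8, 154 and 37.9 in matched reference cells. The smooth muscle list summed to 236 CPM against 286, and the pericyte list to 84.4 against 108. Wells with at least 20 CPM of 2 or more of 8 mural and fibroblast genes were 0 of 107 gated cells, which allows up to 2.8%, and 6 of 183 matched reference cells. With those wells left out of the matched comparison, 42 genes were higher and 52 lower, and 2 arterial list genes passed. The part of these cells in the lower genes was not tested.

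General capillary genes were as high in gated cells as in cells with 1 gate gene. Of 13 tested against the reference, Kit and Bmp6 were higher and Lyve1 lower, where 3.42% of all genes tested were higher and 5.47% lower. Of 14 against the matched reference only Lyve1 passed, as lower. The shares over all genes tested against the matched reference were 1.95% higher and 2.77% lower. Kit was at 969, 1406 and 1266 CPM in gated cells, 596, 973 and 935 in matched reference cells and 749, 1057 and 1216 in cells with 1 gate gene. Gated cells were higher within each set, and the ranges across sets overlapped. Bmp6, a secreted BMP ligand, was at 532 CPM, against 262 in the reference and 574 in cells with 1 gate gene, and its log2 difference of 1.02 was 0.99 without EC1. The 17 measured genes of this list summed to 34998 CPM in gated cells and 35401 CPM in cells with 1 gate gene. The sum was lower in the reference, at 23520 CPM, and in the matched reference, at 29794. Of the 22 venous genes 6 were tested, and Ephb4 and Vwf were higher and Icam1 lower than in the reference, where 3.42% of all genes tested were higher and 5.47% lower. None of them, 0 of 6, passed against the matched reference, with log2 differences of 0.57 for Ephb4, 0.43 for Vwf and -0.69 for Icam1.

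Among antigen presentation genes, 3 of 13 tested were higher than in the reference, namely Nlrc5, H2-Eb1 and H2-DMb1. Of all genes tested, 3.42% were higher there. H2-Eb1, a class II chain, was at 678, 568 and 446 CPM in gated cells, 530, 205 and 136 in the reference and 650, 255 and 232 in the matched reference. Gated cells were higher within each set, and the ranges across sets overlapped. The log2 difference of H2-Eb1, 1.10, was 0.91 without EC2 and 0.89 without EC3, and that of H2-DMb1, 1.07, was 0.55 without EC3. Against the matched reference 0 of 13 passed, where 1.95% of all genes tested were higher. From the remaining lists, some genes were lower than in the reference, where 5.47% of all genes tested were lower. Emilin1 and Timp3 were 2 of 5 elastic fibre genes tested, and Icam1 and Cd34 were 2 of 21 junction genes. Cx3cl1 was 1 of 11 chemokine genes, and Jund 1 of 8 immediate early and heat shock genes. Ccnd1 and Cdkn1a were 2 of 3 cell cycle genes tested. Timp3 and Cd34 also passed against the matched reference, where 2.77% of all genes tested were lower, and Icam1 did not. Emilin1, Cx3cl1, Ccnd1, Cdkn1a and Jund did not reach the filter on low values there. No tested gene of 5 further lists passed against either reference, with 2 connexin, 9 basement membrane, 5 ion channel, 3 WNT and 7 lipid genes tested against the whole reference. The smooth muscle and pericyte lists had 1 gene tested each, which did not pass. The fibroblast, epithelial and leukocyte lists had 0, so that no call was possible. Summed over its 14 genes, the epithelial list was at 240 CPM in gated cells, 1782 in the reference, where the gate's limit on Sftpc and Scgb1a1 was not imposed, and 141 in the matched reference.

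The gated cells were not alike. The 10 that held Gja5 formed a small subset, with 3 cells in EC1, 2 in EC2 and 5 in EC3, beside 15 with Bmx and no Gja5 and 82 with Gja4 and Sema3g only. This split was chosen after values had been seen. The share of genes past the size rule was high in this small split: of 2454 genes tested between the Gja5 holders and the other gated cells, without asking for agreement of the sets, 570 passed as higher, or 23.2%, and 479 as lower, or 19.5%. Of the 17 arterial list genes tested 6 were higher and 2 lower. The values of single cells are therefore given. Median depth was alike, 199540 reads in Gja5 holders and 199482 in cells with Gja4 and Sema3g only.

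Cxcl12 had a read in 10 of 10 Gja5 holders, from 14.8 to 9754 CPM with a median of 2946, and 8 of the 10 were at 875 CPM or more. In the 82 cells with Gja4 and Sema3g only it had a read in 61, with a median of 228 CPM and a highest of 8636. The pooled level was 3270 CPM in Gja5 holders, 1158 in Bmx holders and 936 in the rest. Efnb2 was also found in all 10, from 295 to 4659 CPM with a median of 1256, and in 60 of the 82, with a median of 87.6. Unlike Cxcl12, it did not pass the size rule between Gja5 holders and the other gated cells. Sox17 and Edn1 did not pass there either. No Gja5 holder lacked Cxcl12 or Efnb2, but the ranges overlapped.

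Hey1 was read in 8 of 10 Gja5 holders, with a median of 703 CPM, in 10 of 15 Bmx holders and in 30 of 82 others, with a median of 0. The pooled levels of Hey1 were 757, 551 and 245 CPM in that order. Dll4, the endothelial Notch ligand, was read in 7 of 10 Gja5 holders, with a median of 511 CPM, and in 45 of 82 others, with a median of 12.0. Ltbp4 rested on few cells: it was read in 5 of 10 Gja5 holders, 2 of which stood at 2387 and 3538 CPM and the highest of the rest at 185. Efna1, the gene of ephrin A1, was at 0 in 5 of the 10 and reached 4648 CPM. Vwf was at 1685 CPM in Gja5 holders, read in 8 of 10, against 497 in cells with Gja4 and Sema3g only.

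Of 14 antigen presentation genes tested, 5 were lower in Gja5 holders than in the other gated cells, namely Cd74, H2-Ab1, H2-Eb1, H2-DMb1 and Nlrc5, where 19.5% of all genes tested were lower. Ciita, the class II transactivator, was higher, at 106 CPM against 47.5. H2-Eb1 was read in 2 of 10, at a pooled 80.9 CPM, and in 50 of the 82 with Gja4 and Sema3g only, at 622 CPM. Cd74, the invariant chain, was at 648 and 2034 CPM. Capillary transcripts were present in the Gja5 holders too: Gpihbp1 was read in 10 of 10 with a median of 1957 CPM, and Cd36 in 10 of 10 with a lowest of 1296. Some genes of the arterial list were scarce: Fbln5, Gkn3 and Vegfc were read in 0 of 10, which allows up to 30.0% of such cells. Mgp was read in 1. The summed level of the arterial list went the other way, at 18579 CPM in Gja5 holders and 13024.5 in all gated cells, which include the holders. Cxcl12, high in the holders, is part of that sum.

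**Figure D5:**
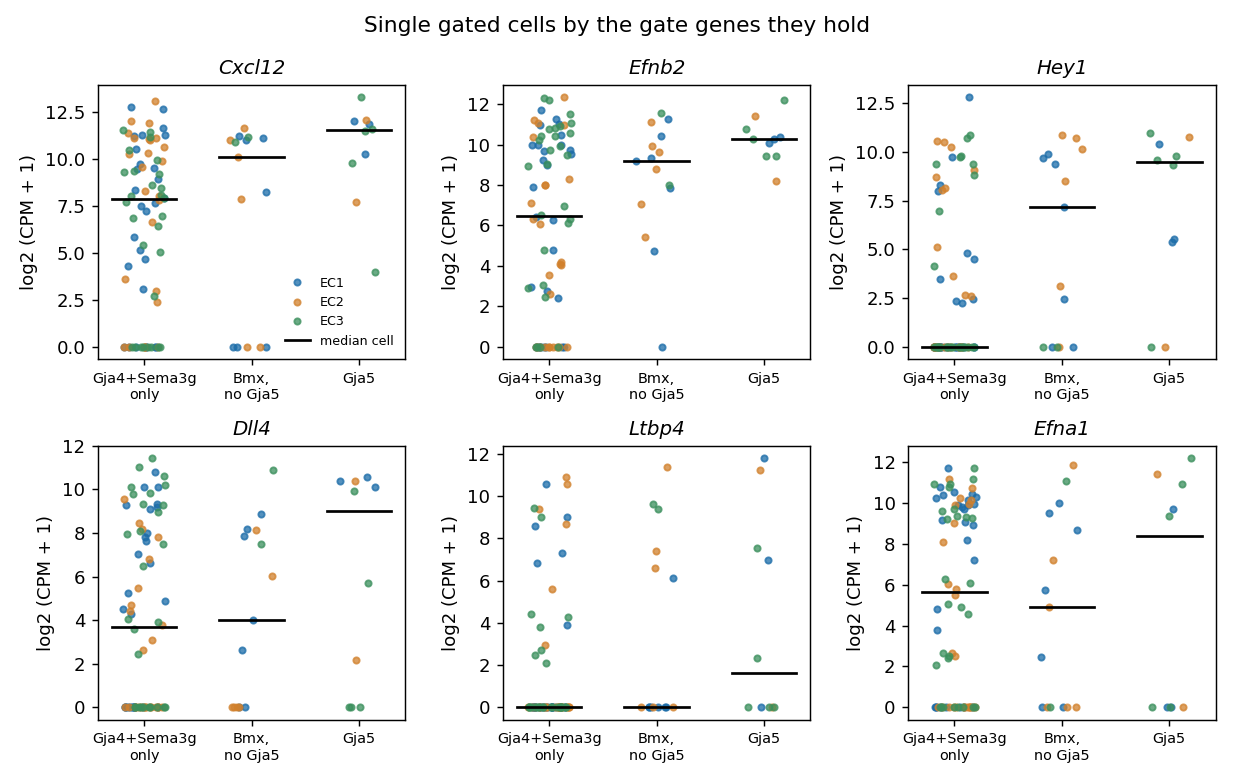
Values of single gated cells as log2 of CPM plus 1 (vertical axis) for 6 genes outside the gate, split by the gate genes held: 82 cells with Gja4 and Sema3g only, 15 with Bmx and no Gja5, and 10 with Gja5. Points are coloured by set and black bars are medians over cells. Cxcl12 and Efnb2 were read in all 10 Gja5 holders, and the other 4 genes were at 0 in some of them.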

How the data were processed

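Of the tables the authors deposited, one gives raw counts of reads for each gene in each cell and the other gives scores. The submitters' processing notes name STAR 2.4.2a and the mm10 build. How reads were counted, on which annotation, and how cells were filtered is not given in the sources used here. Each deposited score was within 0.5 of a gene's reads times 500000 divided by the cell's total, and scores served only in an alternative. The series design text names Cldn5(BAC)eGFP as the endothelial reporter, and the EC columns were assigned to it on that ground.

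CPM used column totals with the eGFP row, and leaving that row out moved 0 cells across the gate. The table holds 21947 genes beside eGFP, of which 20785 matched the GRCm38 annotation by symbol. Reads were summed over the cells of a class. A side under 3 reads was set to 3 reads. Ratio intervals were exact and conditional on the summed reads. No clustering and no doublet caller was run. Named genes were the 12 of largest fold per direction, up to 4 per gene list, and the gate, exclusion and reporter driver genes. Predicted genes and those of ribosomal proteins or mitochondria are only counted, 1 being higher and 3 lower. The genes named beyond this rule, further list members and those named from the comparison with 1 gate gene, were chosen after their values were seen. The members and all lists were chosen with earlier results of these data known, and the comparison with cells of 1 gate gene and the split by Gja5 were chosen after the values had been seen. Tools were python 3.11.15, numpy 2.4.6, pandas 2.3.3, scipy 1.17.1, matplotlib 3.10.9, and edgeR 4.0.16 in R 4.3.3 for scaling factors only. Promoter sequences are from RefSeq, build GRCm38.p6.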

Additional observations from a re-analysis of the deposited data

How the results depend on the processing

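Counts moved with the gate, the reference, the filter and the fold. With 3 of 5 genes required, 7 cells remained, 881 genes were higher and 801 lower, 13 of them arterial list genes that were higher. Without Gja4 the gate also left 7 cells, with 829 higher, 637 lower and 10 arterial. Without Sema3g it left 25, with 119, 327 and 8. The main gate gave 75 higher, 120 lower and 5 arterial. Calls over all genes thus rose in these gates of 7 and 25 cells too, and their arterial counts are not read as a trait of the list. With the gate's exclusions on the reference 38 genes were higher, 54 lower and 1 arterial, and with wells of mural reads left out as well, an alternative added after the data were seen, 42, 52 and 2. Thinning to 50000 reads left 48 higher, and the deposited scores 49. No filter on low values gave 579, 2630 and 10, a filter of 100 CPM and 50% of cells 21 higher and 14 lower, and a fold of 4 gave 0 higher, 26 lower and 0 arterial. Leaving out 1 of EC1, EC2 and EC3 gave 69 to 73 gated cells, 87 to 150 higher genes, 149 to 199 lower and 5 to 8 arterial. TMM and median-ratio scaling, means over cells, equal weight of the sets, no demand on set direction, gates at 5 or 50 CPM, gates without Gja5, Bmx or Dkk2, mural wells left out alone and a gate after thinning kept each of these counts within 1.5 times.

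Of 70 named genes past the rule, 33 remained past it without each set in turn. Directions changed as log2 values. Without Gja4 in the gate, Fnip1 was at -0.25, Cadm1 at -0.066, Zranb2 at -0.43, Nlrc5 at -5.25, H2-Eb1 at -2.39, H2-DMb1 at -5.25, Flt4 at 0.012, Ankrd17 at 0.071 and Ybx3 at 0.91. With 3 of 5 genes, Nlrc5 was at -4.74, H2-Eb1 at -1.57, H2-DMb1 at -4.40, Ankrd17 at 0.13 and Ybx3 at 0.98. Without Sema3g, H2-DMb1 was at -0.52 and Serpinb9 at -0.74. With the matched reference, Scgb1a1 was at 0.49 and Sftpc at 0.0515, and with mural wells left out too at 0.47 and 0.0514. The gates of 7 cells test fewer cells by construction, and for the other changes the cause was not tested. No paired analysis was possible because the columns carry no replicate number and the endothelial cells are 1 sample.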

Other observations

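Genes outside the lists stood out against the matched reference, and they were chosen here after their values were seen. Ggta1, the galactosyltransferase that makes the alpha-gal sugar, was at 454, 133 and 347 CPM in the gated cells of EC1, EC2 and EC3 and at 63.1, 83.6 and 55.6 in matched reference cells, a fold of 4.52 (4.32 to 4.73). It was read in 28.0% and 14.2% of the cells after thinning, and its log2 difference from the whole reference, 1.38, was 0.86 without EC1. Serpinb9, an inhibitor of granzyme B, was at 466, 431 and 203 CPM against 104, 108 and 188, a fold of 2.81 (2.71 to 2.91), and at 372 CPM in cells with 1 gate gene, beside 365 in gated cells. Hdlbp, an RNA-binding protein gene, was at 17.8, 6.33 and 78.9 CPM against 186, 179 and 194, and was 5.27-fold lower (4.89 to 5.69). Its log2 difference from the whole reference, -2.16, was -3.61 without EC3. Surf4, a cargo receptor of the endoplasmic reticulum, was lower than in the matched reference and than in cells with 1 gate gene, at 114, 398 and 242 CPM, and its log2 difference of -1.53 from the whole reference was -0.96 without EC2 and -2.27 without EC3.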
